A study of Mus musculus with 20 samples.

Results

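The genes described here are the nuclear-encoded genes of mitochondrial oxidative phosphorylation, chosen by symbol: every gene of the deposited count table whose symbol begins with Nduf, Uqcr or Atp5, or with Cox followed by 4 to 8, together with Sdha, Sdhb, Sdhc and Sdhd. The rule gave 92 of 24419 genes, of which 45 belong by prefix to complex I, 4 to complex II, 8 to complex III, 18 to complex IV and 17 to complex V. Of these, 86 passed edgeR's filter on low counts and entered the tests (43, 4, 8, 14 and 17 in the same order). The prefixes also bring in assembly factors (Ndufaf genes) and relatives that are not subunits, such as Atp5s, Atp5sl and Cox7a2l. Subunits encoded by mitochondrial DNA were not analysed here.

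Polyadenylated RNA was sequenced from dissociated hippocampal cultures of C57BL6 mouse embryos (embryonic day 18, tissue of 4 embryos pooled) after 10 days in vitro, in 4 groups of 5 libraries. All cultures had received cytosine arabinoside, which kills dividing cells, and all were washed in the same imaging medium. That medium alone was then added in the control group. The glutamate group received glutamate at 50 µM, and the zinc group received it together with ZnCl2 at 10 µM. In the TPA group it came with 10 µM TPA, the zinc-binding chelator tris(2-pyridylmethyl)amine, which these cultures had also been given by itself for 1 min beforehand. Each pulse lasted 2 min and RNA was taken 90 min later, so zinc and TPA were both given on top of glutamate. Per the labels the 5 samples of each condition are biological replicates, and since tissue was pooled, p-values measure the spread between these samples.

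Oxidative phosphorylation supplies most of the ATP of a neuron, much of which is spent on restoring ion gradients after excitation. Complex I takes electrons from NADH and complex II takes them from succinate. Ubiquinone carries them to complex III, cytochrome c carries them on to complex IV, which reduces oxygen, and complex V uses the resulting proton gradient to make ATP. Most subunits are short proteins encoded in the nucleus and imported into mitochondria, and several exist as paralogs with tissue-specific use.

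Library totals lay between 28692470 and 40934630 counts, and the 92 genes took up 0.847% to 1.01% of the counts of a library. All 12 neuronal markers and all 9 astrocyte markers passed the filter, as did 5 of 8 microglial, 6 of 9 oligodendrocyte-lineage, 4 of 7 endothelial and mural, 5 of 5 fibroblast and 5 of 5 proliferation markers, while no blood marker did. In bulk RNA, fewer cells of a type and less RNA per cell cannot be told apart. The libraries that lay farthest from their group over all other genes were glutamate replicates 5 and 4 and zinc replicate 5, and results that change without them are given below. Levels between genes are in TPM, the authors' values per length and per library. Differences of a gene between groups are log2 fold changes with standard error (SE), and values by library are CPM, the count of a gene scaled to the size of its library.

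Oxidative phosphorylation transcripts were abundant in all groups. Their summed level was 2.65% to 3.08% of all TPM in a library. The median member had 280.2 TPM, against 22.1 TPM for the median of 14388 genes tested. Complex IV genes had the highest median level (480 TPM), followed by complex III (412.5 TPM), complex V (375 TPM), complex II (292 TPM) and complex I (186 TPM). Levels ran from 16.996 to 943 TPM in complex I, from 2.31 to 1124 TPM in complex IV and from 19.1 to 1937 TPM in complex V. Complexes II (212 to 372 TPM) and III (288 to 555 TPM) were narrower, with every gene within a 2-fold range.

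**Figure D1:**
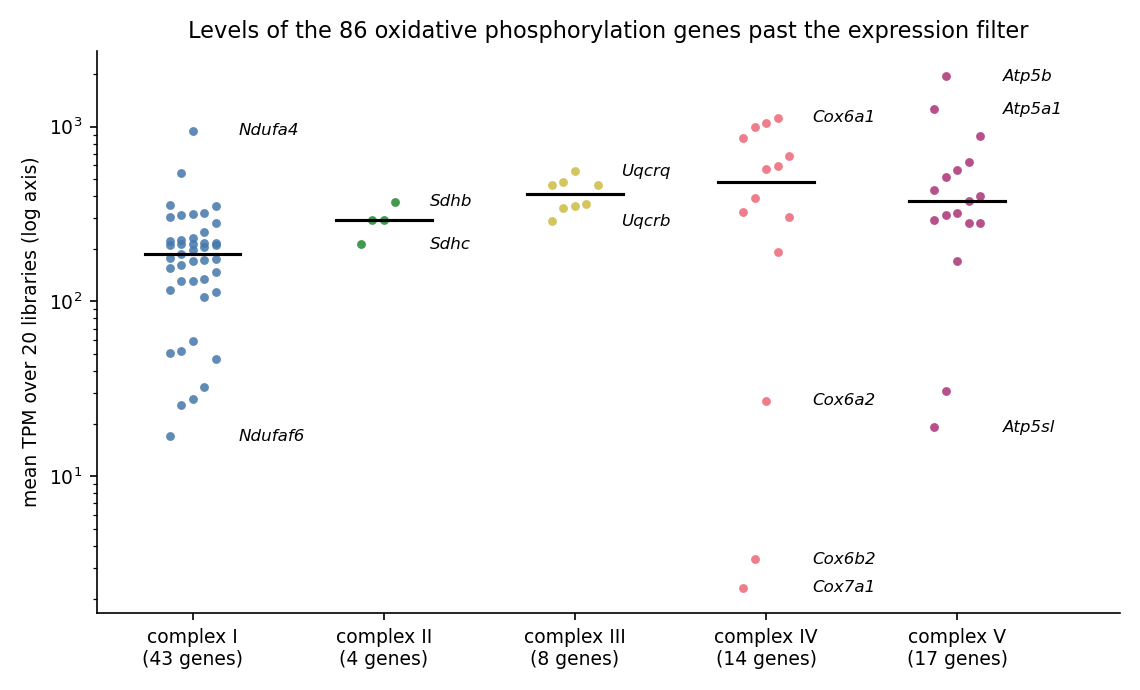
Mean TPM over 20 libraries (log axis) of each of the 86 genes past the expression filter, by complex; 1 point is 1 gene and the black line is the median of the complex. Complexes II and III are compact, while the low points of complexes I, IV and V are Ndufaf6 (16.996 TPM), Cox6b2 (3.36 TPM), Cox7a1 (2.31 TPM) and Atp5sl (19.1 TPM).

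In complex I, the 7 core subunits that carry the flavin and iron-sulfur centres had a median of 206 TPM, and the 29 other subunits by prefix had a median of 210 TPM. Ndufa4, which is now counted with complex IV although its symbol is that of complex I, was the most abundant at 943 ± 48.5 TPM (SD, n = 20), and Ndufb8, a membrane-arm subunit, was next at 545 TPM. The 7 Ndufaf assembly factors, which help to build the enzyme and are not kept in it, were lower as a set (16.996 to 59.3 TPM). Ndufaf3 was the highest of them at 59.3 TPM and Ndufaf6 the lowest at 16.996 TPM.

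Complex II is the citric acid cycle enzyme succinate dehydrogenase. Its iron-sulfur subunit Sdhb had 372 ± 21.1 TPM (SD, n = 20), the flavoprotein Sdha 293 ± 6.57 TPM, and the membrane anchors Sdhd and Sdhc 291 ± 15.8 and 212 ± 9.61 TPM. Sdha and Sdhd did not differ beyond their spread, and Sdhc lay below the other 3. In complex III, Uqcrq, a small subunit, led at 555 TPM, the core proteins Uqcrc1 and Uqcrc2 had 352 and 362 TPM, the Rieske iron-sulfur protein Uqcrfs1 had 342 TPM, and Uqcrb was the lowest at 288 TPM.

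In complex IV, 1 paralog of each pair dominated. Cox4i1 stood almost alone against Cox4i2, a form best known from lung (0 to 1 counts a library), and Cox8a against the muscle form Cox8b and Cox8c (0 to 4 and 0 to 1 counts). Cox6b1 supplied 99.6% of its pair with the testis form Cox6b2. Cox6a1 supplied 97.7% and the heart and muscle form Cox6a2 2.35%. The set of Cox7a1, Cox7a2 and Cox7a2l was shared. Cox7a2 had 66.6% and Cox7a2l, a relative that is not a subunit, 33.1%. The heart and muscle form Cox7a1 had 0.397%. The most abundant genes of the complex were Cox6a1 (1124 TPM), Cox8a (1049 TPM) and Cox4i1 (999 TPM).

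**Figure D2:**
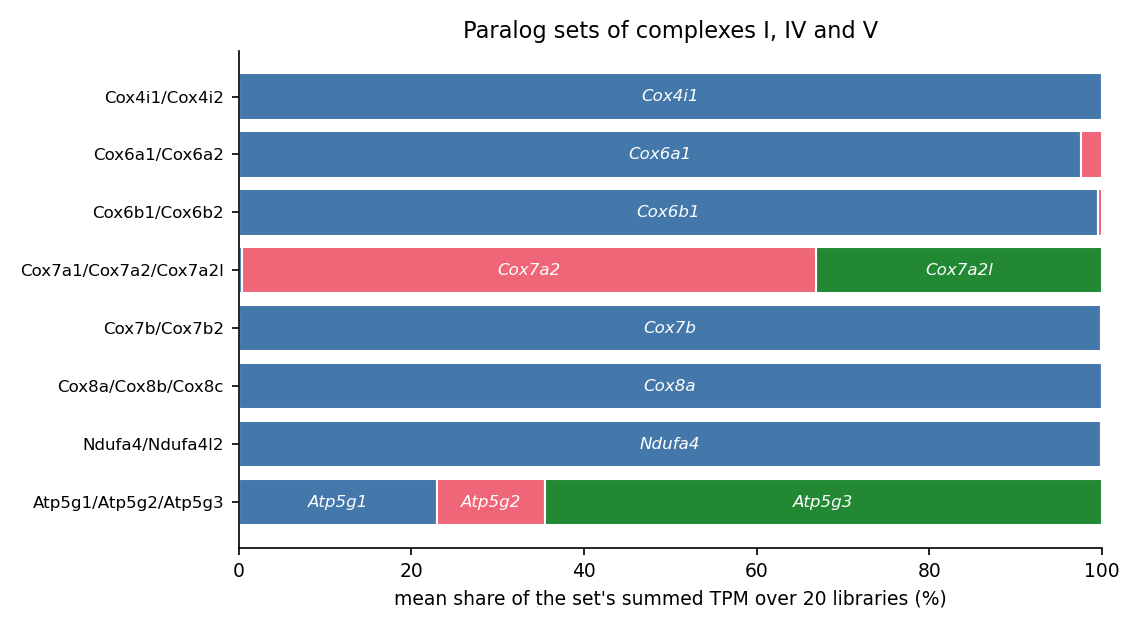
Mean share (%) of each paralog in the summed TPM of its set over 20 libraries; each bar is 1 set and each coloured part is 1 gene, in the order of the label. Most sets are taken almost whole by 1 gene, while Cox7a2 and Cox7a2l (66.6% and 33.1%) and the 3 Atp5g genes share theirs.

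The windows before the start sites of 2 such paralog pairs are shown as examples of a ubiquitous form and a muscle form that differ widely in level. They are the 250 bases before the start site from RefSeq on GRCm38.p6 (the mm10 assembly), with every CG dinucleotide in capitals. Cox7a2 (389 TPM) lies on the minus strand at chr9:79759854-79760103, and Cox7a1 (2.31 TPM) on the plus strand at chr7:30183921-30184170. Cox8a (1049 TPM) lies on the minus strand at chr19:7217617-7217866, and Cox8b (0 to 4 counts a library) on the minus strand at chr7:140900447-140900696.
Cox7a2: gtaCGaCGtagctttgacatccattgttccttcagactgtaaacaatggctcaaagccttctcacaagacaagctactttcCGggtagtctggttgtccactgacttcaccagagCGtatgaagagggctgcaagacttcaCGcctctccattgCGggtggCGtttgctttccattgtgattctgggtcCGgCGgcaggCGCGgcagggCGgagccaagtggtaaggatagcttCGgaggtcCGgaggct
Cox7a1: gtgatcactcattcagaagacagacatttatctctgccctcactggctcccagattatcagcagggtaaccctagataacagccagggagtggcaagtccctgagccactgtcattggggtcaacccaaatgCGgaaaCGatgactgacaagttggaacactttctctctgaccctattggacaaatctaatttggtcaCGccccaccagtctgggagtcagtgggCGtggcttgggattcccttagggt
Cox8a: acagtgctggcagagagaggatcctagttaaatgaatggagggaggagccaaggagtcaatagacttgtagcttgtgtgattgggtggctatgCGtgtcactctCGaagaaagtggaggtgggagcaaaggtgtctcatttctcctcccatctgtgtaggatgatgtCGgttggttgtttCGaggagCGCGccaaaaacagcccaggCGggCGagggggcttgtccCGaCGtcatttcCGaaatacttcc
Cox8b: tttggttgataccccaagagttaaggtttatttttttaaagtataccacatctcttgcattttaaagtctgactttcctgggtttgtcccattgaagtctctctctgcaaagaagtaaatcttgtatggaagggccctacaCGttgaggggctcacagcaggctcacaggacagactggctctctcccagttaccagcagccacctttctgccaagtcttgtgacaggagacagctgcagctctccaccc
Cox7a2 held 14 CG dinucleotides and Cox7a1 4, and Cox8a held 11 and Cox8b 1. The pair of Cox7b and Cox7b2 went the other way: Cox7b, with 99.9% of the TPM of its pair, held 5 and Cox7b2 held 9. Over the 76 genes of the rule that had a RefSeq window the median was 14.5, against 16 for the 11141 genes past the filter with a window and 10 for all 17584 genes with one. These are counts of letters and no methylation was measured.

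Complex V had the most abundant gene of all. Atp5b, the catalytic beta subunit, had 1937 ± 60.4 TPM (SD, n = 20) and Atp5a1, the alpha subunit, 1254 ± 34.9 TPM. These are the subunits present in several copies in each enzyme. The single-copy subunits of the same soluble part, Atp5d (delta), Atp5c1 (gamma) and Atp5e (epsilon), had 562, 402 and 320 TPM. The c subunit of the proton-driven ring is also present in several copies and is encoded by 3 genes that yield the same mature protein: Atp5g3 (879 TPM), Atp5g1 (314 TPM) and Atp5g2 (170 TPM). Their summed level was 1236 to 1418 TPM in a library, with a median of 1368 TPM. Atp5s and Atp5sl, which are not structural subunits, were the lowest at 30.9 and 19.1 TPM.

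The share of Atp5g3 in the 3 c-subunit genes was 65.0% ± 0.575 in control, 64.8% ± 0.873 with glutamate, 63.0% ± 1.32 with zinc and 65.0% ± 0.657 with TPA (SD, n = 5). That of Atp5g1 was 22.5% ± 0.295, 22.7% ± 0.695, 24.1% ± 1.23 and 22.6% ± 0.698 in the same order. The zinc range of Atp5g1 (22.2% to 25.2%) overlapped that of control (22.1% to 22.9%).

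The 6 genes that did not pass the filter were Ndufs5, Ndufa4l2, Cox4i2, Cox7b2, Cox8b and Cox8c. Ndufa4l2 had 1 to 8 counts a library, Cox7b2 and Cox8b 0 to 4, and Cox8c and Cox4i2 0 to 1. A count of 3 corresponds to 0.0733 CPM at the largest library size and 0.105 CPM at the smallest. Ndufs5 is an accessory subunit of complex I that is listed at 0 counts in all 20 libraries, on chromosome 4 (123712710 to 123718186, minus strand, mm10). The authors' annotation gives 484 of its 509 exon bases also to BC002163 on the same strand, which leaves 25 bases of its own, and BC002163 had 12 to 35 counts. The value of 0 is thus that of a gene whose reads could scarcely be assigned to it, and no level is given for Ndufs5.

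Several other genes share sequence with copies elsewhere, and their counts are uncertain to that extent. Of the 50-base stretches of the longest coding transcript, 84.8% of those of Atp5l, 47.9% of Atp5h, 43.4% of Uqcrb, 39.7% of Ndufs3 and 38.7% of Atp5f1 also occur in transcripts of other genes. On the opposite strand, Ndufa13 shares 27.5% of its exon bases with Tssk6 and Cox6a2 69 of its 659 exon bases with Itgad. The library kit keeps strand, and for the counting step the use of strand is not given in these sources.

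Nuclear respiratory factor 1 (NRF1) is a transcription factor known for binding promoters of respiratory chain genes, and its palindromic core motif of 10 letters, printed in capitals in the windows shown here, was searched for in windows of 300 bases (250 before and 50 after the start site). It reads the same on both strands and was found in 7 of 76 windows of the rule (9.2%), against 2.0% of windows of genes past the filter and 1.4% of all windows. Of the 7 genes, Ndufa11, Ndufaf4 and Ndufaf5 are of complex I and Uqcrc1 of complex III. The others were Cox6a1 of complex IV and Atp5g2 and Atp5k of complex V. Levels of the 7 genes ran from 27.5 TPM for Ndufaf4 to 1124 TPM for Cox6a1. None of them was of complex II, where only Sdha, Sdhb and Sdhd had a window. Uqcrb and Cox6a2 had no window either. The 5 windows whose motif lies before the start site are shown, with the motif in capitals and up to 35 bases on each side, from RefSeq on GRCm38.p6. Atp5g2 is at chr15:102671048-102671124 (minus strand), Atp5k at chr5:108434405-108434484 (minus), Cox6a1 at chr5:115349076-115349155 (minus), Ndufa11 at chr17:56717667-56717746 (plus) and Ndufaf4 at chr4:24897935-24898014 (plus).
Atp5g2: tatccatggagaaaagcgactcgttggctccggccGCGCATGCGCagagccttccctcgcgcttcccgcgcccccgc
Atp5k: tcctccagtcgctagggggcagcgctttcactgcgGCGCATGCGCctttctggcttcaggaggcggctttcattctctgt
Cox6a1: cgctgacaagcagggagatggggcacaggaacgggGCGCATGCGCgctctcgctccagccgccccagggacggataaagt
Ndufa11: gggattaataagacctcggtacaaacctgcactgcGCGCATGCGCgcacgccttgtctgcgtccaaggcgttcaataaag
Ndufaf4: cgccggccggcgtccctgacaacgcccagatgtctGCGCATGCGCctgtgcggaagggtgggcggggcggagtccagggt
The motif begins 42 bases before the start site in Atp5g2, 50 in Atp5k, 60 in Ndufa11, 113 in Ndufaf4 and 162 in Cox6a1. Other motifs, searched on both strands, were CCGGAAG (ETS family), found in 21.1% of windows of the rule and 17.3% of those of genes past the filter, ATGGCGGC (YY1), in 9.2% and 4.8%, and TATAAA (the TATA box), in 9.2% and 7.2%. A match describes the letters of the window, and binding was not measured.

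Glutamate alone against control, the comparison that asks what the pulse did by itself, moved no gene of the rule past the threshold (0 of 86 at an adjusted p under 0.05 in edgeR's quasi-likelihood test). Over all 14411 genes tested 0.0208% were called. DESeq2 and limma-voom called 0 too. No gene of the rule reached an unadjusted p under 0.05 either, against 4.98% of all genes, and the libraries of the 2 groups overlapped for every one of the 86, where over all genes 0.527% were higher and 0.458% lower without overlap. The 95% interval of the change lay within 1.2-fold either way for 79 of 86 genes, and the 7 with wider limits were Atp5k, Cox6a2, Cox6b2, Cox7a1, Ndufa3, Ndufaf2 and Ndufaf4. The median log2 fold change was -0.0284, with 66 of 86 values negative, against a median of -0.002 and 51.1% negative over all genes. By complex the medians were -0.0299 (I), -0.0296 (II), -0.0264 (III), -0.0304 (IV) and -0.0149 (V).

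The lowest p-values were those of Ndufa3, an accessory subunit, at -0.13 (SE 0.068, adjusted p = 0.9497 in edgeR), Ndufa7, another, at -0.10 (SE 0.057, adjusted p = 0.9497), and Atp5k, the e subunit of the ATP synthase, at -0.15 (SE 0.087, adjusted p = 0.9497). Ndufa3 had 34.3, 38.2, 36.5, 41.6 and 36.4 CPM in control and 35.6, 35.1, 32.8, 33.4 and 33.9 CPM with glutamate. Control replicate 1 lay among the glutamate libraries and the other control values lay above them. Of the positive values, those of Sdhc (0.04), Ndufaf6 (0.04) and Atp5sl (0.03) had the lowest p. Without glutamate replicate 3 the median of all 86 genes was 0.0033, with 38 negative values, so its sign rested on that library. Without the 3 farthest libraries it was -0.0648, with 76 negative values.

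Adding zinc to glutamate, which asks what extra zinc during the pulse does, gave 0 of 86 genes past the threshold, against 0% of all genes, and 0 with DESeq2 and limma-voom. The median log2 fold change was 0.0243, with 63 values positive, against 0.0006 and 50.3% positive over all genes. The medians of the complexes were 0.0239 (I), 0.0392 (II), 0.0252 (III), 0.029 (IV) and 0.0203 (V). Without glutamate replicate 3 the median was -0.0095 with 48 negative values, and without zinc replicate 5 it was 0.0474 with 10 negative values. Without the 3 farthest libraries it was 0.0845, with 5 negative values. The 95% interval lay within 1.2-fold for 79 of 86 genes.

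At an unadjusted p under 0.05 stood 3 genes with higher values with zinc, against 2.69% of all genes: Uqcrb of complex III at 0.13 (SE 0.048), Ndufa10, an accessory subunit of complex I, at 0.08 (SE 0.037), and Atp5c1, the gamma subunit of complex V, at 0.07 (SE 0.035). Their adjusted p-values in edgeR were 0.741, 0.808 and 0.822. Ndufa10 had 134.7, 141.1, 132.2, 143.4 and 143.9 CPM with glutamate and 144.5, 144.1, 149.95, 152.9 and 143.0 CPM with zinc, so only zinc replicate 5 lay among the glutamate libraries. On the negative side stood Ndufs7, a core subunit, at -0.09, Cox7a2 at -0.07 and Atp5e at -0.10, with adjusted p-values of 0.886 to 0.921.

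Chelating zinc with TPA during the glutamate pulse, which asks what the zinc already present does, gave 0 of 86 genes past the threshold against 0% of all genes, and 0 with DESeq2 and limma-voom. The median log2 fold change was -0.003, with 45 negative and 41 positive values, against 0.0025 and 48.7% negative over all genes. Complexes I and IV had medians above 0 (0.0064 and 0.0283), and complexes II, III and V below (-0.0208, -0.0139 and -0.0061). The median of complex V was 0.0025 over its 15 structural subunits, without Atp5s and Atp5sl. Cox6a2 was the only gene of the rule at an unadjusted p under 0.05, at -0.30 (SE 0.13, adjusted p = 0.677 in edgeR), against 7.15% of all genes. The next lowest were Uqcrb at -0.09 (adjusted p = 0.718) and, among positive values, Ndufab1, the mitochondrial acyl carrier protein, at 0.08 (adjusted p = 0.759). For 80 of 86 genes the 95% interval lay within 1.2-fold. Without the 3 farthest libraries (2 of them from the glutamate group) 1 gene was called, Cox8a at 0.17 (adjusted p = 0.0496), and the median was 0.0314, with 19 negative values.

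The TPA and zinc groups, which differ most in the zinc available, gave the single call of the rule. Uqcrb, a small subunit of complex III, fell by 0.22 on the log2 scale with TPA relative to zinc (SE 0.048, adjusted p = 0.0416 in edgeR), a level 1.16-fold lower. This was 1 of 86 genes, against 0.513% called over all genes and 0.16% called lower. Uqcrb lies on the minus strand of chromosome 13 (66900621 to 66905350, mm10), with 4 exons and 503 exon bases. It had 52.3, 53.0, 54.6, 52.0 and 46.6 CPM with zinc, and 47.6, 39.8, 44.9, 45.7 and 44.0 CPM with TPA. Only zinc replicate 5 and TPA replicate 1 overlapped, and 4 of 5 zinc libraries lay above all TPA libraries. The means of control and glutamate lay between, with 47.2, 49.8, 48.7, 51.8 and 47.5 CPM in control and 45.3, 50.0, 45.5, 48.8 and 47.3 CPM with glutamate. Group means ± SD (n = 5) were 48.99 ± 1.86 in control, 47.4 ± 2.06 with glutamate, 51.7 ± 3.01 with zinc and 44.4 ± 2.87 with TPA.

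The call of Uqcrb was close to the threshold. In 7 of 10 fits that left out 1 library of either group it was lost (without zinc replicates 1, 2 or 3 or TPA replicates 2 to 5), with adjusted p-values of 0.076 to 0.183, while the log2 fold change stayed between -0.254 and -0.182. Without the 3 farthest libraries Uqcrb was at -0.253 (adjusted p = 0.00427) and Cox6a2 and Ndufa13, an accessory subunit of complex I, were called as well, at -0.595 and -0.169. An offset for transcript GC content gave -0.161 (adjusted p = 0.274). In the authors' deposited table of the same 2 groups, Uqcrb had a log2 fold change of 0.184 (SE 0.043) for zinc over TPA. Its adjusted p there was 0.00340. DESeq2 as run here gave -0.218 for TPA relative to zinc, with an adjusted p of 0.00347. The reason that the authors' log2 fold change was smaller in size was not tested. Of the other complex III genes, Uqcrq, Uqcrh, Uqcr10, Uqcr11, Uqcrc1 and Uqcrc2 had values of -0.09 to -0.03 and Uqcrfs1 one of 0.04, with adjusted p-values of at least 0.486.

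Cox6a2 had the lowest log2 fold change of the rule at -0.50 (SE 0.13), 1.41-fold lower with TPA than with zinc, and an adjusted p of 0.0641 in edgeR. It lies on the minus strand of chromosome 7 (128205435 to 128206366, mm10), with 3 exons and 659 exon bases. It had 7.11, 7.45, 7.99, 7.07 and 4.86 CPM with zinc and 5.48, 4.18, 5.15, 4.29 and 5.23 CPM with TPA. Again zinc replicate 5 alone reached into the TPA range, and without it the log2 fold change was -0.597 (adjusted p = 0.0181). Control libraries had 7.12, 6.38, 5.82, 4.83 and 5.05 CPM and glutamate libraries 5.76, 6.31, 6.22, 6.90 and 5.04 CPM. The share of Cox6a2 in its pair with Cox6a1 was 2.72% ± 0.384 with zinc and 1.92% ± 0.205 with TPA (SD, n = 5), against 2.28% ± 0.408 in control. In the authors' deposited table it had a log2 fold change of 0.227 (SE 0.059) for zinc over TPA with an adjusted p of 0.0104. DESeq2 as run here gave -0.499 for TPA relative to zinc, with an adjusted p of 0.0103. The authors' log2 fold change and SE were thus both smaller in size than those in edgeR, at nearly the adjusted p of DESeq2 here. The reason for this difference in size was not tested.

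Cox6a2 is known in brain from parvalbumin interneurons, and markers of inhibitory neurons were set beside it. Between TPA and zinc, Gad1 had a log2 fold change of -0.03 (adjusted p = 0.821), Gad2 -0.01 (0.954), Slc32a1 -0.03 (0.834), Sst 0.15 (0.618) and Pvalb, at 4 to 32 counts a library, -0.26 (0.747), all in edgeR. Itgad, which overlaps Cox6a2 on the other strand, had 1 to 16 counts, against 119 to 303 for Cox6a2. Cox7a1 had a log2 fold change as low as that of Cox6a2 (-0.50), but with 3 to 18 counts a library its SE was 0.35 and its adjusted p 0.4999.

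Over all 86 genes the TPA against zinc median was -0.0311, with 61 values negative, against -0.0012 and 50.3% negative over all genes. All 4 genes of complex II were negative (median -0.0465, lowest Sdhd at -0.10, adjusted p = 0.301), as were 7 of 8 of complex III (-0.0343) and 14 of 17 of complex V (-0.0343). Complex I had 29 of 43 negative (-0.0262) and complex IV 7 of 14 (0.0001), or 8 of 14 (-0.0077) with Ndufa4 counted in it and Cox7a2l left out. Without TPA replicate 2 the overall median was 0.0015 with 42 negative values, so its sign rested on that library. Without zinc replicate 5 it was -0.0584 with 68 negative values, and without the 3 farthest libraries -0.0582 with 67. An unadjusted p under 0.05 was reached by 6 genes, all lower with TPA, against 7.68% of all genes lower. Of the positive values, those of Atp5e (0.15), Ndufs7 (0.11) and Cox7a2 (0.10) had the lowest p, with adjusted p-values of 0.343 to 0.408 in edgeR. The 95% interval lay within 1.2-fold for 77 genes. Those with wider limits, in either direction, were Uqcrb, Cox6a2, Atp5e, Atp5k, Atp5s, Cox6b2, Cox7a1, Ndufa12 and Ndufb2.

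**Figure D3:**
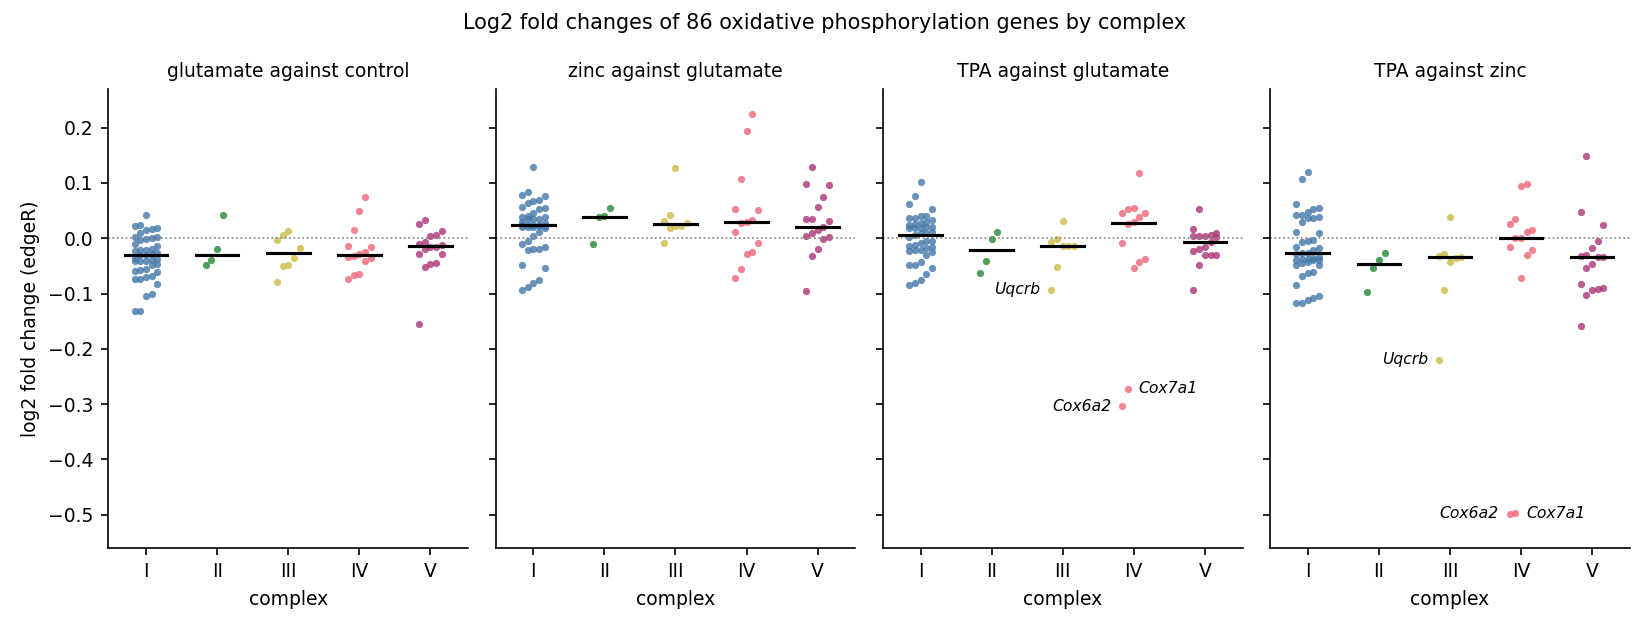
Log2 fold changes (edgeR) of the 86 genes in 4 comparisons, by complex; 1 point is 1 gene and the black line is the median of the complex. Most values lie within 0.2 of 0, and the genes labelled with TPA against zinc are Uqcrb (-0.22), Cox6a2 (-0.50) and Cox7a1 (-0.50, with 3 to 18 counts a library).

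**Figure D4:**
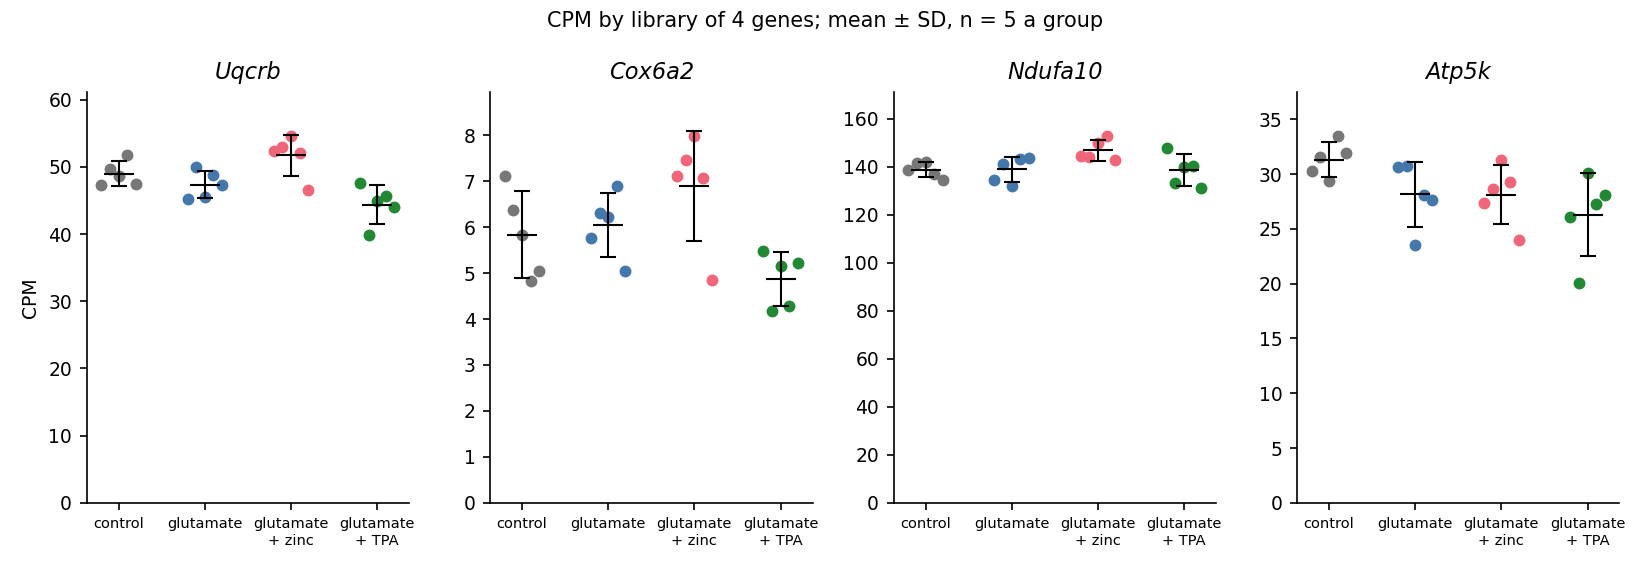
CPM by library (points, from replicate 1 at the left to 5 at the right of each group) of Uqcrb, Cox6a2, Ndufa10 and Atp5k, with mean ± SD (n = 5 a group) and axes from 0. For Uqcrb and Cox6a2 the zinc libraries lie above the TPA libraries except zinc replicate 5.

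Against control, neither the zinc nor the TPA group had a gene of the rule past the threshold (0 of 86 in each, and 0 with DESeq2 and limma-voom), where 0.0416% and 0.0694% of all genes were called. An unadjusted p under 0.05 was reached by 2 genes of the rule in each, against 11.1% of all genes with zinc and 3.09% with TPA. The 95% interval lay within 1.2-fold for 74 of 86 genes with zinc and for 77 of 86 with TPA. Both comparisons use the same control libraries. With zinc the median was -0.0025 and 46 values were negative, and with TPA it was -0.0263 and 65 were negative, against 49.3% and 50.7% negative over all genes. Ndufa10 was the only gene of the rule whose zinc libraries all lay above those of control (1.31% of all genes did so), with 138.9, 141.5, 142.1, 137.2 and 134.6 CPM in control. Its log2 fold change was 0.08 (SE 0.037, adjusted p = 0.427 in edgeR). With zinc, Cox6a2 (0.24), Atp5s (0.16) and Atp5e (-0.15) had log2 fold changes of larger size, with adjusted p-values of 0.468 to 0.487 in edgeR. With TPA, Uqcrb was at -0.14 (SE 0.049) and Atp5k at -0.25 (SE 0.088), both with an adjusted p of 1.00. Atp5k had 30.3, 31.6, 29.4, 33.5 and 31.9 CPM in control and 26.1, 20.1, 30.1, 27.3 and 28.1 CPM with TPA, where TPA replicate 2 was the lowest and replicate 3 overlapped control.

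The medians of the complexes lay farthest apart in TPA against glutamate, with complex II at -0.0208 and complex IV at 0.0283, and nearly as far in TPA against zinc, again with complex II the lowest and complex IV the highest. In glutamate against control all 5 medians were negative and in zinc against glutamate all 5 were positive. These are descriptions, and no complex was tested against another.

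What did vary was the level of the whole list between libraries of the same group. Averaged over the 86 genes, glutamate replicate 3 lay 0.12 below its group mean (log2 CPM), zinc replicate 5 0.127 below and TPA replicate 2 0.113 below, while glutamate replicate 4 lay 0.094, TPA replicate 3 0.082 and TPA replicate 1 0.076 above. The SD of this mean between single libraries of a group was 0.070. The list medians compare groups of 5 libraries, whose means vary less than single libraries. This SD is therefore not a yardstick for the list medians. Control libraries were the most even, between -0.041 and 0.046. Complex IV varied the most (SD 0.103, and 0.086 without its low-count genes Cox6b2 and Cox7a1) and complex II the least (SD 0.046). In zinc replicate 5 all complexes were low, from -0.184 (IV, and -0.159 without those 2 genes) to -0.094 (V). In glutamate replicate 3, complexes I (-0.141), III (-0.134) and V (-0.128) were low and complex II was at -0.025. Complex IV was at -0.065 with all 14 genes and at -0.136 without Cox6b2 and Cox7a1.

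Other lists moved with it in the same libraries. In glutamate replicate 3 the cytosolic ribosomal proteins (79 genes) were at -0.218, the mitochondrial ribosomal proteins (77 genes) at -0.111 and the other genes of up to 700 bases (324 genes, ribosomal proteins among them) at -0.141, and in TPA replicate 2 these values were -0.148, -0.093 and -0.093. The sign of the deviation was that of the oxidative phosphorylation list in 19 of 20 libraries for cytosolic ribosomal proteins and in 18 of 20 for other short genes, but in 10 of 20 for neuronal markers and 8 of 20 for astrocyte markers and for nuclear-retained RNAs. Genes of the rule are short, with a median of 756 exon bases against 3009 over all genes. Those of up to 700 bases (40 genes) had an SD between libraries of 0.095, and those over 700 bases (46 genes) 0.050. In the 3 low libraries (glutamate replicate 3, zinc replicate 5 and TPA replicate 2) the 5 fibroblast markers were also low, at -0.41, -0.581 and -0.206, and the nuclear-retained RNAs were high, at 0.1, 0.139 and 0.101. Over all libraries the fibroblast list shared the sign of the oxidative phosphorylation list in 11 of 20. Microglial markers were low in glutamate replicate 3 (-0.347) and TPA replicate 2 (-0.162) and high in zinc replicate 5 (0.614). The part of transcript length, RNA quality or cell types in these deviations was not tested.

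**Figure D5:**
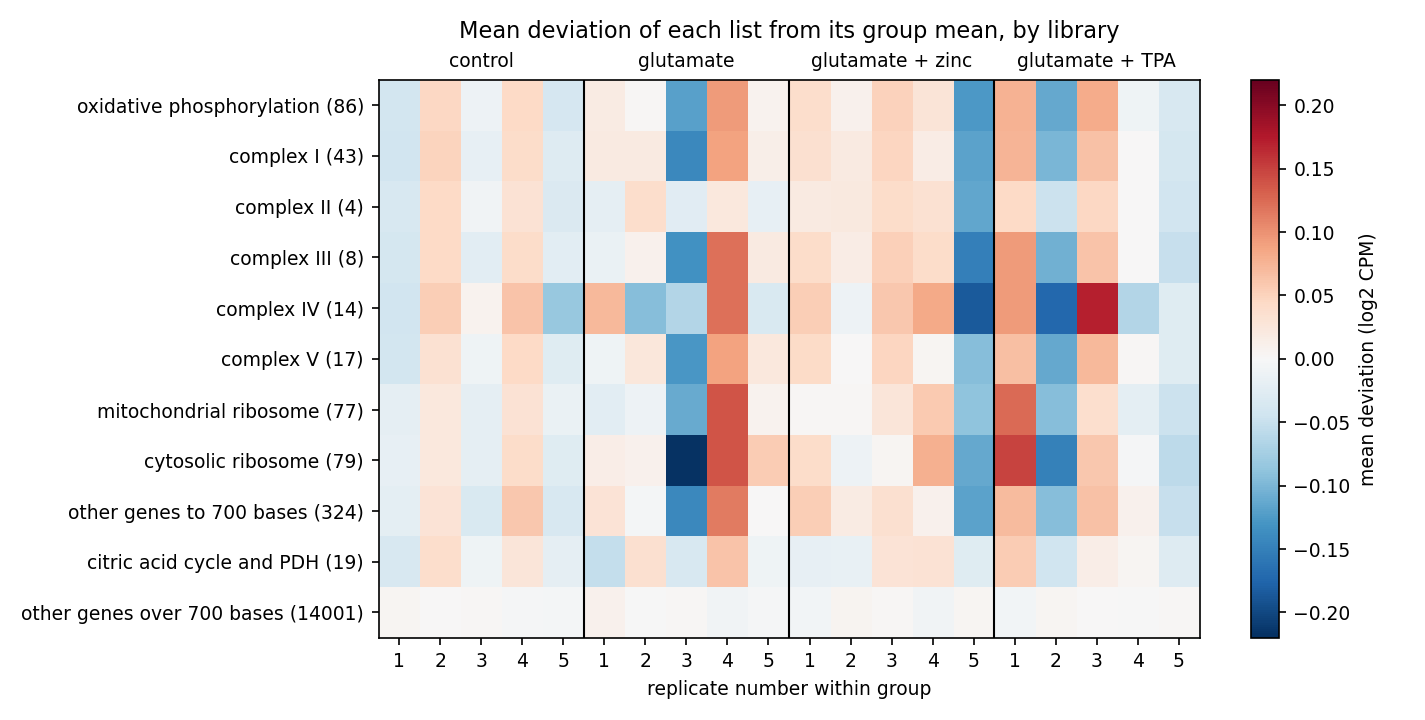
Mean deviation (log2 CPM, colour) of each list from its group mean in each of 20 libraries, with the number of genes in brackets. Glutamate replicate 3, zinc replicate 5 and TPA replicate 2 are low and glutamate replicate 4 is high for oxidative phosphorylation genes, both ribosomes and other short genes, while other genes over 700 bases stay near 0.

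The spread of single genes of the rule was larger among the shorter ones. Those of up to 700 bases (40 genes) had a median SD within groups of 0.117 (log2 CPM) and those over 700 bases (46 genes) 0.076. The shorter genes include the low-count Cox7a1 (366 bases) and Cox6b2 (617 bases), but not Ndufaf4 (3632 bases). The part of length in this spread was not tested. Over all 86 genes of the rule the median SD within groups was 0.089 (log2 CPM), against 0.114 over all genes. By complex it was 0.091 (I), 0.070 (II), 0.083 (III), 0.099 (IV) and 0.078 (V). The core subunits of complex I had 0.068 and its assembly factors 0.095. The most variable were the low-count Cox7a1 (0.488) and Cox6b2 (0.434), followed by Cox6a2 (0.217), Ndufa12 (0.199), an accessory subunit, and Ndufaf4 (0.181). Ndufa12 ran from 27.7 CPM in TPA replicate 2 to 45.6 CPM in control replicate 3.

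The genes around the respiratory chain had small differences as well. Of 19 genes of the citric acid cycle and pyruvate dehydrogenase, 0 passed the threshold in either comparison with zinc. All 19 were positive in zinc against glutamate (median 0.0515) and 18 were negative in TPA against zinc (median -0.0583). Over all genes 50.3% were positive in the first (0% called) and 50.3% negative in the second (0.513% called). These 2 comparisons share the zinc libraries. The list was not tested as a set, and its mean overlapped between libraries. Relative to the mean of 20 libraries it was 0.014 to 0.071 (log2 CPM) with zinc. Glutamate replicates 2 (0.03) and 4 (0.057) and TPA replicate 1 (0.031) lay in that range. Pdha1, a subunit of pyruvate dehydrogenase, was at -0.11 (adjusted p = 0.110 in edgeR) and Sucla2, of succinyl-CoA ligase, at -0.10 (0.150) in TPA against zinc. Of 23 electron carriers and other respiratory chain genes, 18 were negative in that comparison, as were 25 of 40 assembly factors outside the rule, 12 of 17 regulators of mitochondrial biogenesis and 48 of 77 mitochondrial ribosomal proteins, again with 0 past the threshold. Timmdc1, a complex I assembly factor, was at -0.21 (adjusted p = 0.0776 in edgeR), the mitochondrial ribosomal protein genes Mrpl50 and Mrpl30 at -0.15 (0.0972) and -0.14 (0.121), and Pprc1, a coactivator of the PGC-1 family, at 0.15 (0.155). Against these, 41 of 79 cytosolic ribosomal protein genes were negative (median -0.0035).

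Nuclear-retained long RNAs, listed with RNA quality in mind, and markers of cell types were set beside this. No direct measure of RNA quality was used. Of 10 nuclear-retained long RNAs, 1 rose with TPA relative to zinc (Miat, 0.66, adjusted p = 0.0175 in edgeR), and the list had a median of 0.1309 there and of -0.1342 in zinc against glutamate. Of 12 neuronal markers none passed, with 8 negative, 4 positive and a median of -0.0194. Slc17a6, a vesicular glutamate transporter, was at -0.36 (adjusted p = 0.0581 in edgeR). Tubb3, a neuronal tubulin, went the other way at 0.14 (adjusted p = 0.156 in edgeR). The other marker lists had 0 genes past the threshold as well. Their medians in TPA against zinc were -0.2152 for fibroblasts (4 of 5 negative), 0.2309 for microglia (2 of 5), 0.0876 for dividing cells (2 of 5), -0.0685 for endothelium and mural cells (2 of 4), 0.058 for astrocytes (4 of 9) and 0.0434 for the oligodendrocyte lineage (2 of 6). The part of these differences in the values of Uqcrb and Cox6a2 was not tested.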

How the data were processed

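The authors deposited whole-number counts per gene for 20 libraries, TPM per gene and library, an annotation with gene lengths, and tables of their own comparisons with a mean normalized signal, a log2 fold change and its standard error, a test score, a p-value and an adjusted p-value, per the file headers. Tools listed in the submitters' processing notes are DESeq2 1.14.1 under R 3.3.0, featureCounts, the aligner HISAT2 2.1.0, SAMtools 1.3.1 and Trimmomatic 0.36, with the build mm10. Genes were filtered with filterByExpr (14411 left, 99.98% of counts), scaled by TMM and fitted with edgeR 4.0.16 (R 4.3.3) by quasi-likelihood, with all 20 libraries in 1 model, with Benjamini-Hochberg adjustment over all genes. Log2 CPM used a prior count of 2. The model was tested on simulated data. The genes and lists were chosen with earlier results of these data known. Named genes were drawn from those called, the 3 lowest p-values each way in a comparison and the extremes of each complex. Paralog sets and genes not past the filter were also drawn on. Not each of these genes is given in each comparison. Ndufa12, Ndufaf4, Ndufaf2, Ndufb2, the other Uqcr genes and the inhibitory neuron markers were added after their values were seen. So were genes named for shared sequence, motif or rank in level. Other settings were DESeq2 1.42.0, its size factors, library size alone, limma-voom (limma 3.58.1), other filters, the 2 groups alone, the replicate block, single omissions and, added after seeing the data, offsets for length and GC content (loess span 0.5), no robust estimation and omission of 3 libraries. No per-sample column was left unused. The values of 1 gene that this rule names are not reported here.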

Additional observations from a re-analysis of the deposited data

Results flagged for a closer look

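In each group of 5 libraries, the highest and lowest value of 20 named genes and 6 list means was compared with its neighbour. These groups are not independent, since the mean of all genes holds the complexes and the complexes hold the named genes. Chance would flag about 1 in 20 independent groups, and 12 of 104 were flagged. Of these, 7 were zinc replicate 5, where the mean of all 86 genes was -0.113 (log2 CPM relative to the mean of 20 libraries), of complex I -0.114, of complex II -0.091 and of complex III -0.125, and where Sdhc had 74.2 CPM (next 85.6), Ndufs7 31.5 CPM (next 38.1) and Cox6a2 4.86 CPM (next 7.07). In zinc replicate 4, Atp5s had 12.4 CPM (12.3562, next 16.5) and Cox7a2l 85.6 CPM (next 74.4), and in zinc replicate 3 Ndufs3 had 69.3 CPM (next 64.8). Ndufs6 had 22.5 CPM in glutamate replicate 3 (next 29.8). Atp5s had 12.4 CPM in TPA replicate 1 (12.4296, next 14.9). The reason that each of these libraries lay apart was not tested.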

How the results depend on the processing

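No gene of the rule was called under any setting in glutamate against control, zinc against glutamate, zinc against control or TPA against control. In TPA against glutamate, 1 was called without the 3 farthest libraries and 0 otherwise. In TPA against zinc, where 1 was called, the number was 0 with library size alone, with no filter on low counts, with the 2 groups alone and with the GC offset, 2 with DESeq2, with the replicate block and with the length offset (Cox6a2 added), and 3 without the 3 farthest libraries (Cox6a2 and Ndufa13 added). Over single omissions it ran from 0 to 3, the highest without zinc replicate 4 (Cox6a2 and Atp5s added) and 2 without zinc replicate 5. The labels do not say that a replicate number marks a shared culture or day, and the numbers were not treated as pairs. Correlations of same-numbered libraries ran from -0.07 to 0.5, with 11 of 30 over 0.1. Of 20 libraries, 9 correlated best with their own number in another group. No count expected by chance is set beside these. Astrocyte markers were below the group mean in replicates 1 and 2 of every group (-0.211 to -0.067). They were above it in replicates 3 to 5 (0.009 to 0.2). Not every list split this way: markers of dividing cells were at 0.062 in glutamate replicate 1 and -0.205 in glutamate replicate 3. Whether libraries of the same number share an origin was not tested. The replicate block changed no other count of called genes of the rule. Over single omissions the list medians ran from -0.0567 to 0.0033 in glutamate against control and from -0.0095 to 0.051 in zinc against glutamate. They ran from -0.0265 to 0.0193 in TPA against glutamate and from -0.0584 to 0.0015 in TPA against zinc. Against control they ran from -0.0151 to 0.0198 with zinc and from -0.0433 to -0.0062 with TPA. The SD of the list within groups (0.0699) is that of single libraries and is not a yardstick for these medians. Without the 3 farthest libraries Atp5sl turned to -0.007 in glutamate against control, and Cox7a2 to 0.028 and Atp5e to 0.039 in zinc against glutamate; Cox7a2l in TPA against control ran from -0.002 without TPA replicate 1 to 0.1 without TPA replicate 2. The cause of these shifts was not tested. Over all genes the number called in TPA against zinc was 74 and ran from 5 to 899 over single omissions and from 6 to 1149 over other settings.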
